A study of Mus musculus with 24 samples.

Results

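The genes described here are 57 genes that copy DNA or serve the S phase of the cell cycle. They were taken by name from a fixed list of 57 symbols, and all 57 were found among the 9420 genes of the deposited expression table. They were followed in mouse CD4+ T cells of the Th1 effector type, which secrete interferon gamma, from the DO11.10 strain, whose T cell receptor is a transgene. Cells were restimulated for up to 4 h with plate-bound goat antibody to hamster immunoglobulin, soluble anti-CD3 at 1 µg/ml with anti-CD28 added at 2.5 µg/ml, and 0 h cells served as the baseline. Whether the replicates are different animals or cultures is not stated in the labels, and p-values therefore measure only how far these libraries spread.

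Sequencing covered 24 libraries in 16 groups. RNA made during 1 h of labelling with 200 µM 4-thiouridine (4sU RNA) was replicated (2 libraries) at 4, 1 and 0 h, with a single library at 3 and at 2 h. Ribosome profiling, the sequencing of fragments that ribosomes protect (RP), was replicated at the same 3 times, with single libraries at 2 and at 0.5 h. For total RNA, 4 h and 0 h were replicated, and 2 h and 1 h were single. A shorter 4sU label, of 0.5 h at 500 µM, was used for 1 library at 0.5 h and 1 at 0 h. The design asks when transcription, RNA level and ribosome occupancy of a gene change after restimulation.

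DNA replication is prepared in G1, when the origin recognition complex, CDC6 and CDT1 load the MCM helicase onto origins, a step called licensing. In S phase the kinases CDC7 and CDK2 turn loaded MCM into an active helicase with CDC45 and the GINS complex, and polymerases alpha, delta and epsilon copy the strands with the PCNA clamp. Many of these genes are transcribed by E2F factors, which the retinoblastoma family holds back until cyclin-dependent kinases release them, so their RNA marks cells that cycle.

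Promoter windows of RefSeq (GRCm38.p6, 250 bases before to 50 after a start site) were held for 47 of the 57 genes, in 58 windows. They are shown because E2F is the textbook regulator of the group. Gmnn, Mcm4, Gins1, Gins2, Gins4, Prim2, Pole, Rfc2, Tipin and Ccne2 were not matched. The E2F motif was searched as TTTCCCGC, TTTCGCGC, TTTGCCGC or TTTGGCGC on both strands. It occurred in 18 of the 47 genes (38.3%), against 394 of 7562 genes (5.21%) with a window among the genes of the expression table. Of the 25 matches, 16 began 50 or fewer bases from the start site. In Mcm5 and Mcm6 matches overlapped. The 4 windows below belong to the genes with the largest changes in 4sU RNA at 4 h among those with a match, E2f2 (chr4:136172024-136172323, plus strand), Pole2 (chr12:69228141-69228440, minus strand), Clspn (chr4:126556730-126557029, plus strand) and Cdc6 (chr11:98907901-98908200, plus strand). They read 5′ to 3′ on the gene's strand, and capitals mark the motif.
E2f2: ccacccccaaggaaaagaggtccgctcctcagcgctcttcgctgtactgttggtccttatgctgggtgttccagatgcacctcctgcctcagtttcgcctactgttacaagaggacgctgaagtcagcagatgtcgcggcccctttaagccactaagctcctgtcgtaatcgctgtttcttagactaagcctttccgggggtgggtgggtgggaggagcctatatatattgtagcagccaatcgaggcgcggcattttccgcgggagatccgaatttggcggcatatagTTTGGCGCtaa
Pole2: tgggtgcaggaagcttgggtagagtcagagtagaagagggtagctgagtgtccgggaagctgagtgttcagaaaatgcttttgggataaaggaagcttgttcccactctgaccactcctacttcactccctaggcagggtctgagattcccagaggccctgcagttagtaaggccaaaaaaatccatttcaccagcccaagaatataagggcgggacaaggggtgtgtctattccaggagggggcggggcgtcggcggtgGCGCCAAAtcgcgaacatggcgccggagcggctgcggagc
Clspn: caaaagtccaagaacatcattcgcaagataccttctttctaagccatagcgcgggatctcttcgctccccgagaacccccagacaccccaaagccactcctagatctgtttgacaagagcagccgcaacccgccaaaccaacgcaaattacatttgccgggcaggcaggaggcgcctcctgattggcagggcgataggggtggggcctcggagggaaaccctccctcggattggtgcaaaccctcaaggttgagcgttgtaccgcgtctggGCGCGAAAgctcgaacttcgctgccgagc
Cdc6: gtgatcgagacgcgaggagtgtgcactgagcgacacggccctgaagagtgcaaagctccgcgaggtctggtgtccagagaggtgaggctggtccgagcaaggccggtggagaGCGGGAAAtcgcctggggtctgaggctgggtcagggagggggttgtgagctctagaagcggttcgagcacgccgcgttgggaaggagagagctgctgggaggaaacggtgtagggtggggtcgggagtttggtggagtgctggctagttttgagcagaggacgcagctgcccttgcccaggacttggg
The motif began 39, 10 and 21 bases after the start site in E2f2, Pole2 and Clspn, and at position -138 in Cdc6. These letters are a description of the windows and were not tested as binding sites. The motif was found in 11 of 30 members called lower at 4 h in 4sU RNA (36.7%) and in 7 of 17 other members (41.2%), shares given without a test.

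Levels are FPKM, a fragment count divided by gene length and by the mapped fragments of its library, and changes are differences of log2(FPKM + 1), later time minus earlier time, given ± the fitted standard error (SE). Calls needed an adjusted p below 0.05 (limma, with Benjamini-Hochberg adjustment over all genes tested). FPKM is relative to the library's total, and in bulk RNA fewer cells in S phase and less RNA per cell cannot be told apart. Depth could be inferred for 11 libraries, from 8.95 to 26.6 M reads for RP, 12.7 and 14.9 M for the short label at 0.5 and 0 h, and 4.87 M for total RNA 0 h replicate 2, and is unknown for the others. In the shallowest of these the least covered member, E2f1, rested on about 82 reads. Replicates correlated at 0.945 to 0.967 over all genes.

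Markers of the labelled cell type were present: all 9 Th1 and CD4 T cell markers had a value above 0 in every library, and their summed 4sU level was 8089 and 2883 FPKM at 4 h, against 888 and 818 FPKM at 0 h (replicates 1 and 2). Most of the sum at 4 h was Ifng, the interferon gamma gene, with 7580 and 2368 FPKM at 4 h, against 101 and 45.4 FPKM at 0 h. The other 8 markers summed to 509 and 515 FPKM at 4 h, against 787 and 773 FPKM at 0 h. Markers of other cells moved with time or with the replicate. The 5 of 6 B cell markers in the table summed to 1.89 and 2.19 FPKM at 4 h, against 19.2 and 4.43 FPKM at 0 h. The 7 CD8 T cell markers summed to 178 and 63.5 FPKM at 4 h, against 151 and 28.4 FPKM at 0 h, so replicate 1 was above replicate 2 at both times. The 2 of 6 NK cell markers in the table summed to 15.8 and 14.6 FPKM at 4 h, against 28.8 and 38.8 FPKM at 0 h. The 3 of 10 myeloid and dendritic markers in the table summed to 11.0 and 12.1 FPKM at 4 h, against 26.3 and 11.2 FPKM at 0 h. In RP the B cell sum was 6.57 and 7.52 FPKM at 4 h, against 65.6 and 17.2 FPKM at 0 h, and the CD8 sum 1143 and 167 FPKM, against 1098 and 128 FPKM. Of that CD8 sum, Gzma had 857 and 15.9 FPKM at 4 h, against 714 and 12.6 FPKM at 0 h. No defining marker of these lists that is in the table was at 0 in a 4sU or RP library, and their part in the results was not tested. One library stood apart from the rest, the single total RNA library at 1 h, of replicate 2. In it the median change from 0 h was -0.83, -0.77 and -0.85 over genes of chromosomes 11, 16 and 19 (812, 294 and 350 genes), and between 0.01 and 0.08 on each of the other autosomes and X. In the other 16 later libraries the chromosome medians lay between -0.34 and 0.05. The library belongs to no tested contrast but enters the total RNA fits. As the only total RNA library of its time it is fitted exactly. It can act only through the filter on low genes and the spread that limma pools over genes. Leaving it out, an alternative chosen after seeing the data, could therefore change little, and is no check of the low chromosomes. It also gave 15 called members in total RNA at 4 h, with a median of -0.71, and 0 in both interactions.

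In unstimulated cells all 57 genes were expressed in total RNA. Pcna, the sliding clamp, and Mcm5, a subunit of the MCM helicase, were highest in total RNA at 0 h, with 187 and 120.1 FPKM on average. Gins2, a GINS subunit, and E2f1, an activating E2F factor, were lowest, with 6.30 and 5.09 FPKM. In replicates 1 and 2 the levels of these 4 genes were 174 and 201 FPKM (Pcna), 132 and 108 FPKM (Mcm5), 5.66 and 6.93 FPKM (Gins2), and 4.87 and 5.31 FPKM (E2f1). Pcna was above Mcm5 in both replicates, while Gins2, E2f1 and the gene ranked just above them, Orc1 with 6.50 and 6.34 FPKM, were close, and Gins2 and Orc1 overlapped.

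The ratio of 4sU RNA to total RNA at 0 h, taken on the log2 scale relative to the median of 9049 genes, ranged widely among the members. Ccne1, the cyclin that starts S phase, stood at 1.45 above that median (1.39 and 1.51 in replicates 1 and 2), higher than 99.4% of genes. E2f2, an activating E2F factor, stood at 1.25, the licensing factors Cdc6 and Cdt1 at 1.15 and 1.10, and Gins3 at 1.01. Lig1, the ligase that joins Okazaki fragments, was lowest at -1.44, and Rrm1, the large subunit of ribonucleotide reductase, followed at -1.13. Over the members the ratio ranged from -1.44 to 1.45 with a median of -0.27, and 17 of 57 were above the median of all genes. Each of these 7 genes was on the same side of the median in both replicates. E2f1, of the same role group as Ccne1 and E2f2, stood at -0.24.

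The ratio of RP to total RNA at 0 h ordered the genes differently. Slbp, which binds the stem-loop of histone messages, stood at 2.73 above the median of all genes (2.79 and 2.67 in replicates 1 and 2), higher than 98.8% of genes. Tyms, the thymidylate synthase, stood at 2.12, Gins2 at 1.93, the dUTPase Dut at 1.89, the thymidine kinase Tk1 at 1.80 and geminin, Gmnn, the inhibitor of CDT1, at 1.78. Tipin, a fork protection factor, and Rfc1, the large subunit of the clamp loader, were lowest at -1.32 and -1.16. The members' median was 0.27, and 38 of 57 were above the median of all genes. The steps of the RP values matched coding length, and those of the 1 total RNA library that could be resolved matched exon length. The part of gene length in this ratio was not tested, and the ratios are given without a test.

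**Figure D1:**
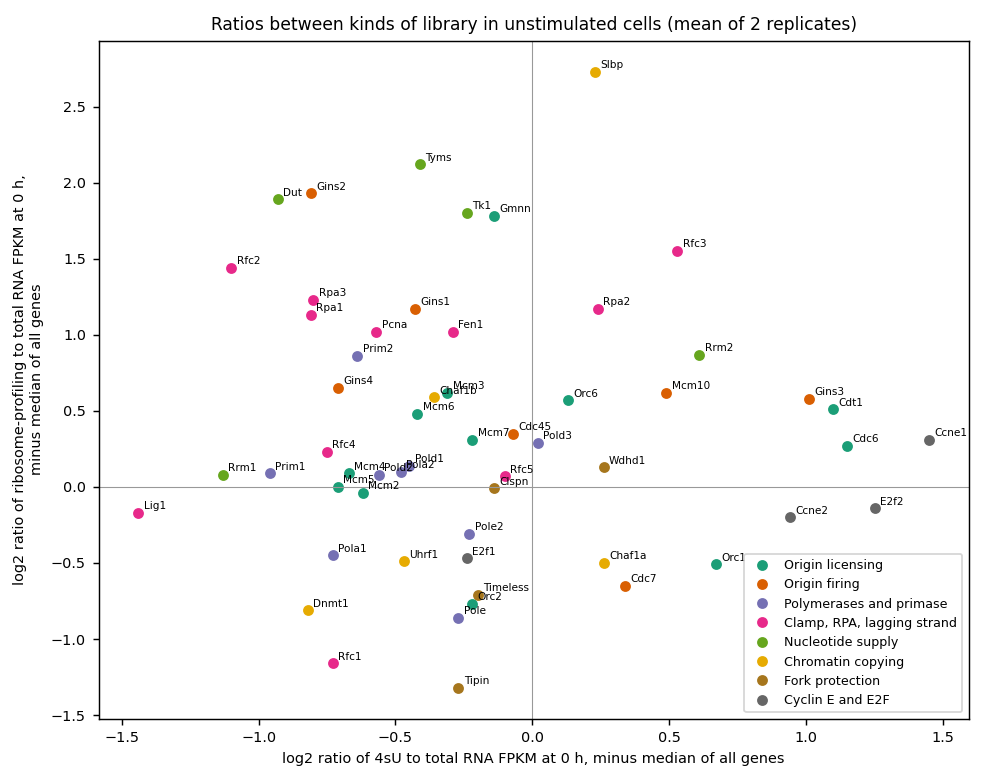
Each point is a gene in unstimulated cells (mean of 2 replicates). The x axis is the log2 ratio of 4sU RNA to total RNA and the y axis that of ribosome profiling to total RNA, both minus the median of all genes, and colours mark roles. Ccne1, E2f2, Cdc6 and Cdt1 lie at the right, Lig1 at the left, and Slbp, Tyms, Gins2 and Dut at the top.

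At 1 h after restimulation, 4sU RNA of most members was slightly above 0 h, but no member passed the test. The median change was 0.17, against -0.03 over all 9278 genes tested. Of the 57 members 44 lay above 0 and 41 were higher in both replicates, against 4307 and 3351 of the 9278 genes. The test called 0.183% of all genes higher and 0.0% lower. An unadjusted p below 0.05 by limma was had by 6 of 57 members and by 1236 of 9278 genes. With the replicate number as a block, 5 members were called higher and 0 lower, against 5.21% higher and 5.42% lower of all genes. The 5 were Orc1, Cdc6 and Cdt1, which license origins, Lig1, and Chaf1b, a subunit of the histone chaperone CAF-1.

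Cdt1 had 129 and 113 FPKM of 4sU RNA at 1 h, against 86.1 and 70.8 FPKM at 0 h (replicates 1 and 2), with no overlap. Its change was 0.62 ± 0.25 (SE, adjusted p = 0.357 by limma, and 0.0448 with the replicate block). Lig1 had 27.6 and 32.3 FPKM at 1 h, against 19.99 and 19.7 FPKM at 0 h, also without overlap. Its change was 0.57 ± 0.16 (adjusted p = 0.253 by limma, and 0.0400 with the block). The largest value was that of Gins2, 0.70 ± 0.24, at low levels of 8.38 and 8.87 FPKM at 1 h, against 4.06 and 5.93 FPKM at 0 h (adjusted p = 0.305, and 0.0737 with the block). Chaf1b changed by 0.56 ± 0.21 and E2f1 by 0.55 ± 0.23 (adjusted p = 0.344 and 0.385 by limma), and the block moved the p of Chaf1b to 0.0409. Pole, the catalytic subunit of polymerase epsilon, and Clspn, the checkpoint mediator claspin, both changed by 0.40, and Tk1 by 0.35, and none of these 3 was called in either fit.

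By role, the 5 genes of chromatin copying had the highest median at 1 h, 0.29, and all 5 lay above 0. Of the 12 licensing genes, 11 lay above 0, with a median of 0.26. The 9 polymerase and primase genes had a median of 0.05, with 5 above 0. In the short-label pair the 57 genes had a median change of 0.12 at 0.5 h, against -0.04 over all genes, with 40 above 0 and 1 library a time. In RP at 1 h no member was called (0.14% of all genes higher, 0.0% lower), nor with the block (1.42% higher, 0.548% lower), and 1 member (991 genes) had an unadjusted p below 0.05. The members' median in RP at 1 h was 0.05, against -0.04 over all genes, and 11 of 12 licensing genes lay above 0. Orc6 of the origin recognition complex had the largest value, with 127 and 141 FPKM at 1 h, against 84.3 and 101 FPKM at 0 h (0.53 ± 0.20, adjusted p = 0.435 by limma). The RP median at 1 h was -0.05 without replicate 2 of the 1 h RP libraries.

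**Figure D2:**
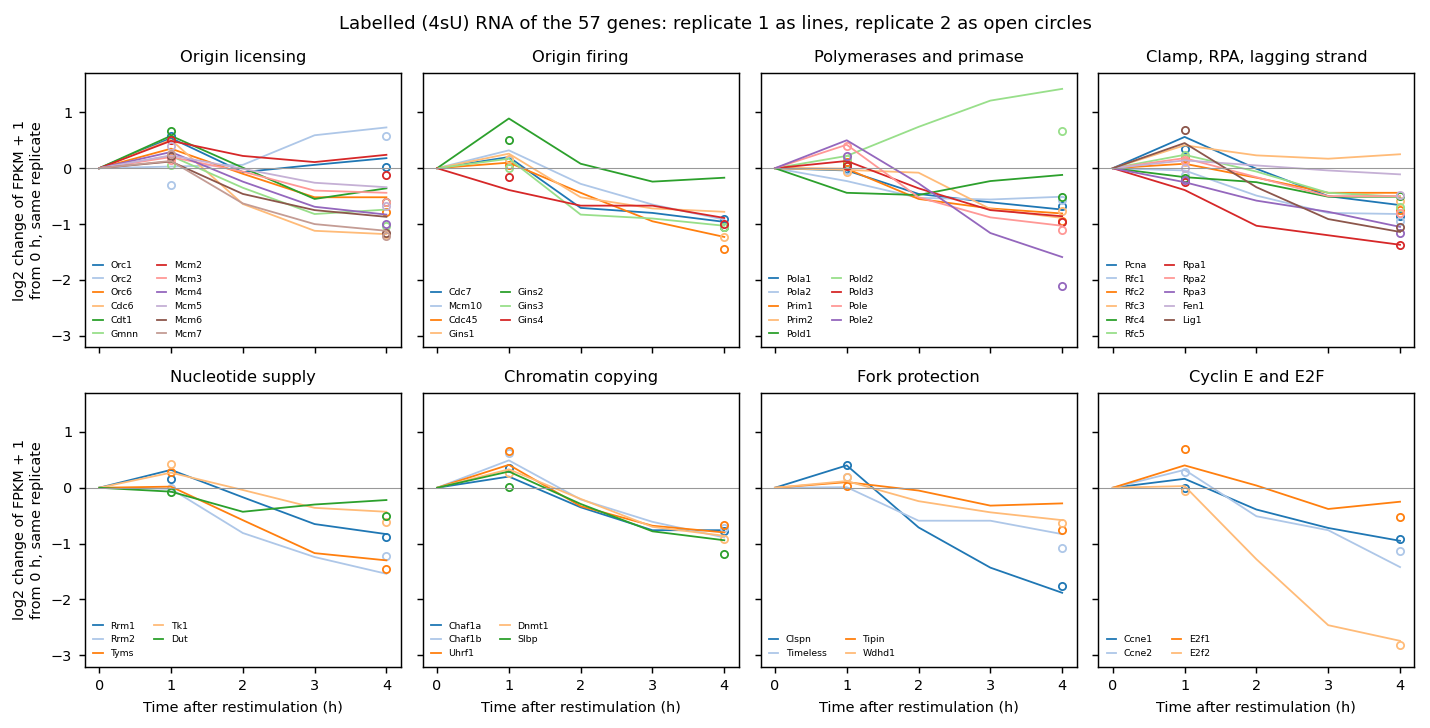
The panels show, by role, the log2 change of 4sU RNA (FPKM + 1) from 0 h of the same replicate, against hours of restimulation. Lines are replicate 1 and open circles replicate 2, 1 colour a gene. Most lines peak at 1 h and lie below 0 by 3 h, E2f2 reaches -2.74 at 4 h in replicate 1, and Pold2, Orc2, Rfc3, Mcm2 and Orc1 end above 0 in replicate 1.

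The full 4sU time course exists in replicate 1 only, so its order is a description of single libraries. Within it, 43 of 57 members were highest at 1 h, 12 at 0 h and 2 at 4 h, and 44 were lowest at 4 h. The median change from 0 h was 0.20, -0.33, -0.67 and -0.81 at 1, 2, 3 and 4 h, against -0.04, -0.14, -0.16 and -0.22 over all genes. At 2 h the genes had separated: E2f2 stood at 65.8 FPKM, against 161 FPKM at 0 h, and Rpa1, a subunit of the single-strand binding protein RPA, at 22.8 FPKM, against 47.8 FPKM at 0 h. Orc2 and Pold2 were the members highest at 4 h. Replicate 2 had medians of 0.16 at 1 h and -0.90 at 4 h.

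At 4 h, transcription of the group as measured by 4sU RNA was lower than at 0 h. In 4sU RNA 38 of 57 members fell and 1 rose, against 18.9% lower and 14.4% higher of the 9278 genes tested, and the members' median change was -0.86, against -0.16 over all genes. With the replicate block, 48 fell and 2 rose (35.4% lower and 23.3% higher over all genes). Members called lower were found in every role group, 6 of 12 in licensing, 6 of 7 in firing, 7 of 9 polymerase and primase genes, 6 of 11 of the clamp, RPA and lagging strand, 3 of 5 in nucleotide supply, 4 of 5 in chromatin copying, 3 of 4 in fork protection, and 3 of 4 of the cyclin E and E2F genes. Fewer members were called whichever 4 h or 0 h library was left out. Each such fit has a single library at 4 h or at 0 h and fewer residual degrees of freedom. The share of all genes called in these fits is not given, so the smaller counts do not show how well the members hold. Median-of-ratios scaling moved the median of all genes from -0.16 to -0.01 and that of the members from -0.86 to -0.70, and the share of all calls that were higher from 43.2% to 54.5%.

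E2f2 (chr4:136172394-136196057, plus strand) changed most. It had 23.2 and 21.4 FPKM of 4sU RNA at 4 h, against 161 and 156 FPKM at 0 h. This was a change of -2.78 ± 0.17 (adjusted p = 0.00164 by limma), and the groups were far apart. Ccne2, the other cyclin E, had 11.3 and 17.8 FPKM at 4 h, against 32.1 and 40.2 FPKM at 0 h, and fell by 1.28 on the log2 scale (SE 0.26, adjusted p = 0.0137 by limma). Ccne1 fell to 41.5 and 42.5 FPKM at 4 h, against 80.9 and 81.6 FPKM at 0 h. E2f1, at 4.71 and 4.55 FPKM at 4 h and 5.81 and 7.02 FPKM at 0 h, was not called in 4sU RNA (-0.39 ± 0.23, adjusted p = 0.230 by limma). Within this role group the changes therefore ran from -2.78 to -0.39.

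Among licensing genes, Cdc6 and Mcm7 had the largest decreases. Cdc6 had 21.0 and 18.5 FPKM at 4 h, against 48.8 and 42.9 FPKM at 0 h (-1.17 ± 0.17, adjusted p = 0.00575 by limma). Mcm7 had 34.2 and 27.2 FPKM at 4 h, against 75.7 and 64.7 FPKM at 0 h (-1.17 ± 0.19, adjusted p = 0.00787). The 6 subunits of the MCM hexamer differed. Mcm7, Mcm6 and Mcm4 fell. Mcm3 and Mcm5 had changes of -0.53 and -0.51 that were called only with the block (adjusted p = 0.0149 and 0.0373 by limma with the block). Mcm2, at 58.9 and 38.1 FPKM at 4 h and 49.6 and 41.8 FPKM at 0 h, had a change of 0.06 ± 0.25. The differences between subunits were not tested. Orc2, a subunit of the origin recognition complex (chr1:58462771-58505109, minus strand), was the 1 member that rose, and is named for that after its values were seen. It had 22.9 and 22.4 FPKM at 4 h, against 13.4 and 14.8 FPKM at 0 h (0.65 ± 0.16, adjusted p = 0.0271 by limma), and the adjusted p ranged from 0.0566 to 0.145 with 1 library left out. Its exons overlap those of Nif3l1 on the opposite strand by 1150 bases, and the strand setting of the counting is not given in the sources used here. Orc1 had 17.3 and 17.0 FPKM at 4 h, against 15.1 and 16.7 FPKM at 0 h (0.10 ± 0.16).

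Of the genes that turn licensed origins into moving forks, Cdc45, part of the active helicase, fell to 16.3 and 14.0 FPKM at 4 h, against 39.8 and 40.2 FPKM at 0 h (-1.34 ± 0.16, adjusted p = 0.00361 by limma). Gins3 fell by 1.05 on the log2 scale (SE 0.15, adjusted p = 0.00536). Mcm10, Gins1, Gins4 and Cdc7 fell by 0.99, 1.01, 0.94 and 0.93. Gins2, with a change of -0.61 ± 0.24, was the member of this role group that was not called (adjusted p = 0.0967 by limma, and 0.0379 with the block). In this group every change lay below 0.

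Among the polymerases, Pole2, the second subunit of polymerase epsilon, fell to 5.94 and 5.46 FPKM at 4 h, against 19.9 and 26.8 FPKM at 0 h (-1.85 ± 0.19, adjusted p = 0.00298 by limma). Its exons share 245 bases with those of Gm49384 on the same strand, so reads there cannot be told apart. Pole fell by 1.07 on the log2 scale (SE 0.20, adjusted p = 0.0118), and Pold3, Prim1, Prim2, Pola1 and Pola2 by 0.92, 0.87, 0.82, 0.71 and 0.53. Pold2, the second subunit of polymerase delta, went the other way without passing the test. It had 36.8 and 17.5 FPKM at 4 h, against 13.1 and 10.6 FPKM at 0 h (1.05 ± 0.35, adjusted p = 0.0631 by limma, and 0.00273 with the replicate block). Both 4 h values were above both 0 h values, and replicate 1 was far above replicate 2. Pold1, the catalytic subunit, had -0.32 ± 0.24, so the 3 subunits of polymerase delta among the members differed in their values.

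Rpa1 fell to 17.9 and 16.4 FPKM at 4 h, against 47.8 and 44.0 FPKM at 0 h (-1.37 ± 0.15, adjusted p = 0.00326 by limma). Rpa3, the smallest RPA subunit, fell to 5.41 and 5.95 FPKM, against 12.3 and 14.6 FPKM at 0 h (-1.11 ± 0.19, adjusted p = 0.00854). Lig1 fell by 1.10 and Rfc1 by 0.88 on the log2 scale. Pcna had 123 and 92.4 FPKM at 4 h, against 195 and 168 FPKM at 0 h, and was not called (-0.76 ± 0.28, adjusted p = 0.0800, and 0.00712 with the block). In nucleotide supply, Rrm2, the small subunit of ribonucleotide reductase, had 93.9 and 82.7 FPKM at 4 h, against 275 and 194 FPKM at 0 h, and fell by 1.38 (SE 0.29, adjusted p = 0.0160). Tyms fell by 1.38 as well (SE 0.20, adjusted p = 0.00584), with 4.31 and 4.43 FPKM at 4 h, against 12.1 and 13.8 FPKM at 0 h, while Dut and Tk1 were not called (adjusted p = 0.361 and 0.0521, and 0.0545 and 0.0149 with the block).

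In chromatin copying, Slbp and Dnmt1, the maintenance DNA methyltransferase, fell by 1.06 and 0.89 on the log2 scale (SE 0.16 each, adjusted p = 0.00607 and 0.0103 by limma). Dnmt1 had 37.9 and 38.2 FPKM at 4 h, against 69.7 and 73.3 FPKM at 0 h, and Slbp 19.0 and 17.5 FPKM, against 37.3 and 41.1 FPKM. Replicates of both genes were close to each other at each time. In fork protection, Clspn fell to 6.06 and 8.79 FPKM at 4 h, against 24.95 and 32.0 FPKM at 0 h (-1.82 ± 0.24, adjusted p = 0.00464). Timeless, the partner of TIPIN at forks, fell by 0.95 (SE 0.17, adjusted p = 0.0104), and Tipin, with 56.7 and 40.5 FPKM at 4 h and 68.9 and 69.2 FPKM at 0 h, was not called (-0.52 ± 0.21, adjusted p = 0.104, and 0.0288 with the block).

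**Figure D3:**
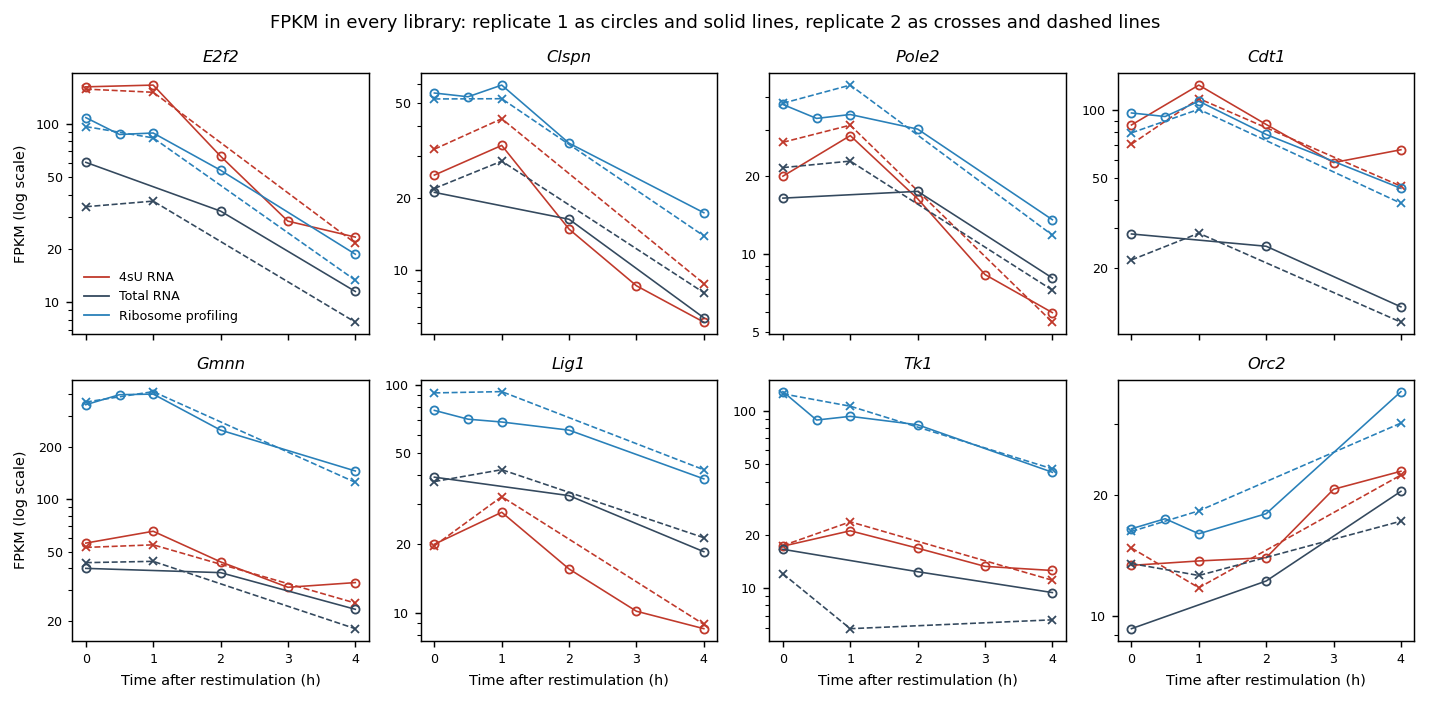
FPKM (log axis) of 8 genes in every 4sU, total RNA and RP library against hours of restimulation, replicate 1 as circles with solid lines and replicate 2 as crosses with dashed lines. E2f2, Clspn and Pole2 lie far lower at 4 h than at 0 h in all 3 kinds, Cdt1 and Lig1 have their highest 4sU values at 1 h, and Orc2 lies higher at 4 h.

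The 4 h to 1 h comparison shares its 4 h libraries with the one above. In it 44 members fell and 1, Orc2, rose (14.7% lower and 11.9% higher over all genes), and with the block 50 fell and 2 rose (32.2% lower and 22.0% higher). The median change was -1.02, against -0.13 over all genes, and all 7 firing genes, all 5 chromatin genes and all 4 cyclin E and E2F genes fell. Cdc6 had 21.0 and 18.5 FPKM at 4 h, against 69.6 and 61.2 FPKM at 1 h (-1.68 ± 0.17, adjusted p = 0.00561 by limma). Lig1 had 8.53 and 8.91 FPKM at 4 h, against 27.6 and 32.3 FPKM at 1 h (-1.67 ± 0.16, adjusted p = 0.00525). The 4 h values of both genes lay below all 1 h values and, as given above for Cdc6, below those at 0 h. Pcna, which missed the threshold against 0 h, had 123 and 92.4 FPKM at 4 h, against 288 and 213 FPKM at 1 h, and fell by 1.21 (SE 0.28, adjusted p = 0.0268). Chaf1b and Uhrf1, which guides DNMT1 to copied DNA, fell by 1.37 and 1.26, Gins2 by 1.31, Clspn by 2.22, Pole2 by 2.20 and E2f2 by 2.76. Here too fewer members were called whichever 4 h or 1 h library was left out, in fits for which the share of all genes is not given.

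In total RNA at 4 h, 15 of 57 members fell and 0 rose, against 7.02% lower and 6.47% higher of 9078 genes, and the median change was -0.71, against -0.10 over all genes. With the replicate block, 42 fell and 1, Orc2, rose (23.3% lower and 16.6% higher over all genes). With any 1 of these 4 libraries left out, few or no members were called. Such a fit has a single library at 4 h or at 0 h and fewer residual degrees of freedom. The smaller count therefore does not show which library matters. Under median-of-ratios scaling 9 members were called lower, and the share of all calls that were higher was 58.8%, against 48.0% as deposited. The fit has 2 residual degrees of freedom, against 3 for 4sU RNA and for RP.

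E2f2 again had the largest change, with 11.5 and 7.74 FPKM in total RNA at 4 h, against 60.8 and 34.3 FPKM at 0 h (-2.16 ± 0.34, adjusted p = 0.0140 by limma). Clspn had 6.32 and 8.05 FPKM at 4 h, against 21.1 and 21.9 FPKM at 0 h (-1.47 ± 0.23, adjusted p = 0.0137). Timeless had 7.26 and 6.42 FPKM, against 17.9 and 16.5 FPKM at 0 h (-1.22 ± 0.22, adjusted p = 0.0181). These genes and Pole2 (-1.19) and Mcm6 (-1.17) had the largest decreases in total RNA, with no overlap between times. Dnmt1, Rpa1, Rfc1 and Mcm7 fell by 1.09, 1.08, 1.00 and 1.00. Gmnn, Cdt1, Gins2, Lig1, Chaf1b and E2f1 also fell, by 0.84 to 0.99, and all 6 were not called under median-of-ratios scaling (adjusted p from 0.0517 to 0.0626 by limma). No gene of nucleotide supply was called (4 lower with the block), and Tk1 had the largest value there (-0.76 ± 0.27, adjusted p = 0.103 by limma, and 0.00305 with the block).

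In the single total RNA library at 1 h, whose chromosomes 11, 16 and 19 were low as given above, the 10 lowest members were the 10 that lie on these chromosomes. They were Pola2, Fen1, Rfc4, Rpa1, Cdc45, Tk1, Mcm4, Chaf1b, Pold2 and Cdc6, with changes from -1.51 to -0.34 against 0 h of the same replicate. The other 47 members had a median of 0.08, and the lowest of them, Gins2, had -0.22. No change with time is read from the 10 genes in this library. In the total RNA library at 2 h, of replicate 1, the median was -0.06, against -0.07 over all genes.

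In RP at 4 h, 32 members fell and Orc2 rose (12.9% lower and 12.1% higher of 9312 genes), and with the block 44 fell and 1 rose (26.7% lower and 21.3% higher). The median change was -0.86, against -0.10 over all genes, and -0.77 under median-of-ratios scaling. All 7 firing genes fell, as did 6 of 12 licensing genes and 5 of 9 polymerase and primase genes. So did 5 of 11 of the clamp, RPA and lagging strand (8 with the block), and 4 of 5 in chromatin copying. In nucleotide supply 2 of 5 fell (4 with the block), and in fork protection 2 of 4 (3 with the block). Of the cyclin E and E2F genes only E2f2 fell, 1 of 4 (2 with the block), with a median of -0.53. Ccne2, which fell in 4sU RNA, had 30.3 and 24.1 FPKM of RP at 4 h, against 31.7 and 23.6 FPKM at 0 h. Fewer members were called whichever 4 h or 0 h library was left out, and the share of all genes in those fits is not given.

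Gmnn had 145 and 125 FPKM of RP at 4 h, against 349 and 361 FPKM at 0 h (-1.39 ± 0.19, adjusted p = 0.00760 by limma). Mcm6 had 99.9 and 83.2 FPKM at 4 h, against 230.1 and 259 FPKM at 0 h (-1.41 ± 0.23, adjusted p = 0.0114). The 4 h libraries of both genes lay far below their 0 h libraries. Tk1 had 45.1 and 47.2 FPKM of RP at 4 h, against 129 and 125 FPKM at 0 h (-1.44 ± 0.17, adjusted p = 0.00598 by limma). Its 4sU RNA had 12.6 and 11.1 FPKM, against 17.3 and 17.4 FPKM (-0.52 ± 0.16, adjusted p = 0.0521, and called lower with the block as given above). The difference between RP and 4sU RNA was not tested. Rpa2, the middle RPA subunit, had 64.9 and 78.1 FPKM of RP at 4 h, against 181 and 197 FPKM at 0 h (-1.39 ± 0.22, adjusted p = 0.0113). E2f2, Clspn and Pole2 fell by 2.62, 1.72 and 1.51 in RP, Timeless by 1.29, Chaf1b by 1.14, Pole by 1.11, Gins3 by 1.07, Dnmt1 by 1.06, Gins2 by 1.05, Lig1 by 1.04 and Rrm1 by 0.80. Under median-of-ratios scaling Rrm1 was not called (adjusted p = 0.073 by limma). Orc2 rose to 36.0 and 30.1 FPKM of RP, against 16.5 and 16.2 FPKM at 0 h (0.97 ± 0.18, adjusted p = 0.0159), with an adjusted p from 0.0413 to 0.0896 when 1 library was left out.

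In the RP time course of replicate 1 the members' median change was -0.05, -0.04, -0.27 and -0.76 at 0.5, 1, 2 and 4 h. Over all genes it was -0.07, -0.06, -0.08 and -0.16. The members' median at 2 h in 4sU RNA was -0.33, and that at 1 h in RP of replicate 2 was 0.09. In RP 48 members were lowest at 4 h, and 27 were highest at 0 h, against 12 in 4sU RNA of the same replicate. The 2 courses differ in their times, with 0.5 h only in RP and 3 h only in 4sU RNA, so these counts are not like for like. Gmnn and Clspn had RP levels of 401 and 59.3 FPKM at 1 h, against 349 and 55.0 FPKM at 0 h, and lower values at 2 h, 249 and 33.9 FPKM. These are single libraries and were not tested.

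**Figure D4:**
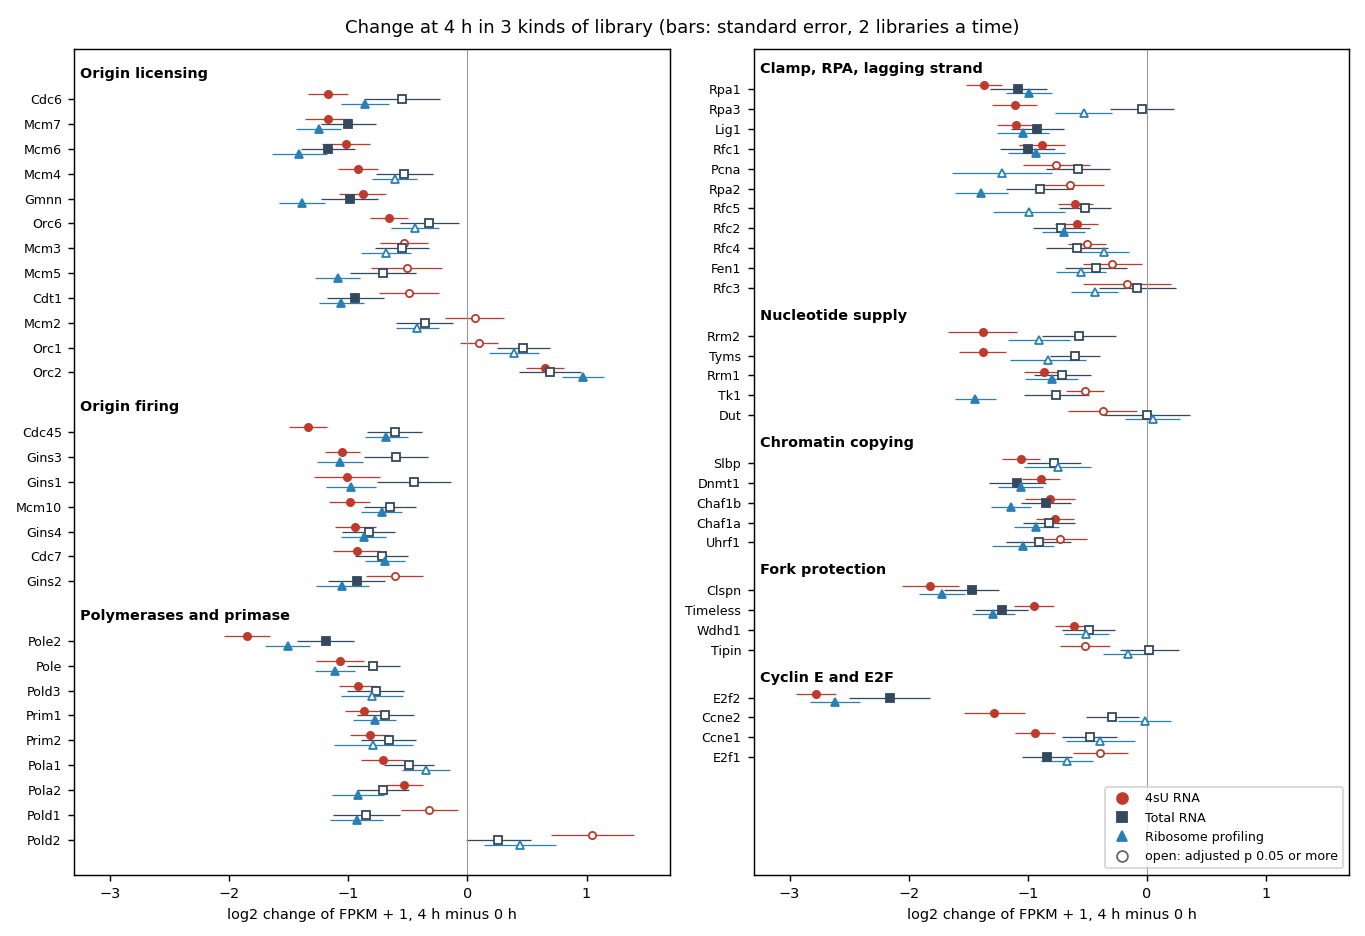
Each row is a gene, ordered by its 4sU change within its role. The x axis is the log2 change of FPKM + 1, 4 h minus 0 h, in 4sU RNA (circles), total RNA (squares) and RP (triangles), bars are SE, and filled symbols have an adjusted p below 0.05. Nearly all symbols lie left of 0, E2f2 farthest, and those of Orc2, Orc1 and Pold2 lie right of 0.

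The 3 kinds of library share no libraries, but they are not independent, since libraries of the same replicate number deviated together across kinds (correlations of 0.787 between 4sU and total RNA, 0.61 between RP and total RNA and 0.511 between 4sU and RP at 4 h). In all 3 kinds 12 members fell, which is 12 of the 38 called lower in 4sU RNA, of the 32 in RP and of the 15 in total RNA. These were Gmnn, Mcm6, Mcm7, Pole2, Rfc1, Rpa1, Lig1, Chaf1b, Dnmt1, Clspn, Timeless and E2f2. The overlap was 8 under median-of-ratios scaling, which lost Gmnn, Rfc1, Lig1 and Chaf1b, and 39 with the block. Without 1 of the 4 total RNA libraries the overlap was smaller, in fits with a single library at 4 h or at 0 h. The overlap over all genes is not given here. It can be no more than the 637 of 9078 genes called lower in total RNA, or 2114 with the block. At least 1 kind called 46 members lower. A gene had 3 chances to enter this count, and the share of all genes is not given for it either. Among the genes tested in 4sU RNA that share cannot be below the 18.9% called lower there. In none of the 3 kinds were 10 members called, also without a share of all genes. Among them were Pcna, Mcm2, Mcm3, Fen1, Dut, Tipin and Orc1. Across the 57 genes the changes in RP and total RNA correlated at r = 0.92 (Spearman 0.82), those in 4sU and total RNA at 0.73 (0.41) and those in 4sU RNA and RP at 0.73 (0.43). Genes are not independent replicates and the kinds share replicates, so the correlations are descriptions.

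Whether a gene's change at 4 h differed between kinds was tested as an interaction. For 4sU against total RNA, limma called 0 members and 0.0% of 9033 genes, and with the block 0 members and 1.97% of genes. At an unadjusted p below 0.05 there were 5 members and 526 genes. Rpa3 had the largest difference, 4sU minus total RNA, of -1.07 ± 0.31 (adjusted p = 0.601 by limma, and 0.0956 with the block). In total RNA it had 19.95 and 12.8 FPKM at 4 h, against 16.7 and 16.4 FPKM at 0 h, while its 4sU RNA fell. Ccne2 followed at -0.99 ± 0.33, then Rrm2 at -0.81 ± 0.44, Pold2 at 0.79 ± 0.48, Tyms at -0.78 ± 0.26 and Cdc45 at -0.73 ± 0.24 (adjusted p = 0.684, 0.922, 0.937, 0.684 and 0.665). For RP against total RNA, limma called 0 members and 0.0% of 9021 genes, with the block 0 members and 0.0333% of genes, and at an unadjusted p below 0.05 there were 0 members and 241 genes. Tk1 had the largest difference, -0.68 ± 0.31, and Pcna had -0.65 ± 0.53. The members' median difference was -0.15 for 4sU minus total RNA (-0.08 over all genes) and -0.12 for RP minus total RNA (0.00 over all genes). Both interactions use the same total RNA libraries.

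Genes around the members were followed as lists, whose counts are to be read against the shares of all genes given above, 18.9% lower and 14.4% higher in 4sU RNA at 4 h, 7.02% and 6.47% in total RNA and 12.9% and 12.1% in RP. Counts with the block have larger shares beside them. These are 35.4% lower and 23.3% higher in 4sU RNA, 23.3% and 16.6% in total RNA and 26.7% and 21.3% in RP. Of 15 genes of the E2F and retinoblastoma family, 7 fell and 4 rose in 4sU RNA at 4 h, with a median of -0.98. Rb1, the retinoblastoma protein, had 4.18 ± 1.56 FPKM at 4 h and 16.7 ± 0.226 FPKM at 0 h (SD, n = 2), and fell by 1.81 on the log2 scale (SE 0.24, adjusted p = 0.00431 by limma). Its relative Rbl1 had 11.9 ± 1.64 and 41.4 ± 3.46 FPKM, and fell by 1.72. The 4 that rose, named after their values were seen, were E2f4, E2f5 and E2f6 and the E2F partner Tfdp1, by 1.29, 1.30, 0.70 and 0.73. The list holds both activators and repressors of S phase genes. In total RNA 5 fell and 1 rose (7 and 3 with the block), and in RP 6 fell and 3 rose.

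Of 16 cyclins, kinases and inhibitors of the G1 to S transition in the table, 6 fell and 2 rose in 4sU RNA at 4 h (7 and 6 with the block), and the 2 that rose are close to the share of all genes. Cdkn1b, the inhibitor p27, fell by 3.19 (SE 0.56, adjusted p = 0.00948 by limma), with 12.7 ± 9.32 FPKM at 4 h and 110 ± 27.1 FPKM at 0 h (SD, n = 2). Cdk6, a kinase that phosphorylates RB, rose by 2.65 (SE 0.64, adjusted p = 0.0247), with 59.8 ± 3.60 FPKM at 4 h and 10.2 ± 8.08 FPKM at 0 h. The other gene that rose, named after its values were seen, was the D-type cyclin Ccnd2 (1.51). In total RNA 5 fell and 3 rose, and in RP 6 fell and 3 rose. Cdk6 and Ccnd2 act before cyclin E in G1.

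Of 27 other replication factors, 8 fell and 0 rose in 4sU RNA at 4 h, with a median of -0.53, and Top2a, topoisomerase II alpha, and Atad5, which unloads PCNA, fell most (by 1.50 and 1.38). With the block 16 fell and 2 rose. Limma called 0 lower and 1 higher in total RNA (10 and 2 with the block), and 6 lower and 2 higher in RP (14 and 3 with the block). Of 17 other nucleotide and chromatin genes, 8 fell and 1 rose (10 and 3 with the block), and Dck, deoxycytidine kinase, and Samhd1, which breaks down deoxynucleotides, fell by 2.44 and 2.08. The gene that rose, named after its values were seen, was Cdca7, by 1.32. The same list had 2 lower and 0 higher in total RNA (6 and 1 with the block), and 8 lower and 1 higher in RP. Of 16 genes of S phase repair and checkpoint, 12 fell and 0 rose, and Brca1 and Rad54l, of homologous recombination, fell by 2.03 and 1.42. This list had 3 lower in total RNA (11 with the block) and 8 lower and 0 higher in RP (10 and 1 with the block). Of 22 mitosis genes, 19 fell and 0 rose, with a median of -1.34, and Nusap1 of the spindle and the cyclin Ccnb2 fell by 2.19 and 2.11. Mitosis genes had a median of -0.19 at 1 h in 4sU RNA, with 3 of 22 above 0, while the members had 0.17 with 44 of 57 above 0, medians set side by side without a test. At 4 h 9 of 22 mitosis genes fell in total RNA (21 with the block) and 19 of 22 in RP.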

How the data were processed

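The authors deposited FPKM values with 2 decimals for 9420 genes in 24 libraries. The counting tool was featureCounts (Subread 1.4.6-p3) and the genome GRCm38, per the submitters' processing notes. How reads were aligned, which annotation and gene lengths were used and whether counting used strand is not stated there. Gene identifiers were matched to symbols in GENCODE M21 (9412 of 9420). Exons of 13 members overlap those of a protein-coding gene on the opposite strand, and those of 1, Pole2, a gene on the same strand. The 13 are Ccne2, Cdc45, Chaf1a, Fen1, Gins2, Lig1, Mcm7, Orc2, Orc6, Rfc2, Rfc4, Rfc5 and Tk1. The overlap is 4648 bases in Chaf1a and 2758 in Gins2, against 1150 in Orc2. Its part in the values of these genes was not tested. Depth was inferred from the steps between small FPKM values (up to 8 reads, tolerance 0.1 read).

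From the FPKM, log2(FPKM + 1) was computed, a scale that understates the change of low genes, and fitted in limma 3.58.1 (R 4.3.3, empirical Bayes with a mean-dependent prior) with two-sided Benjamini-Hochberg adjustment over genes of at least 1 FPKM on average. All 57 members passed this filter in every comparison. Each kind of library was fitted alone over all its times (4sU fit with 3 residual degrees of freedom, total RNA 2, RP 3), and differences between kinds as an interaction (5). Scripts were tested on simulated data. The members and lists were chosen with earlier results of these data known.

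Libraries with the same replicate number deviated together in all 28 pairs of replicated groups (correlations from 0.307 to 0.790, median 0.599). The numbers were taken as pairing them, which rests on these correlations since the labels do not say so. The main fit has no term for the replicate number and so leaves this pairing out. Only the fit with the block takes it in. The value with the replicate number as a block is printed beside counts of called members or list genes that it moves by over 1.5 times, and beside uncalled members that it calls where their p is given. The block leaves 1 residual degree of freedom for total RNA.

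In each comparison and role group the 2 called members with the largest change were named (1 as a value where none was called), the 2 highest and 2 lowest members in total RNA, and from each surrounding list the 2 genes that changed most among those called. Other members named were chosen after their values were seen. Alternatives were a pseudocount of 0.1, no filter, a filter at 5 FPKM, median-of-ratios scaling, the replicate block, leaving out each library and, chosen after seeing the data, leaving out the 1 h total RNA library.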

Additional observations from a re-analysis of the deposited data

How the results depend on the processing

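A pseudocount of 0.1, no filter, and a filter at 5 FPKM changed no count of called members past 1.5 times and no named call. With the replicate number as a block, 5 members were called in 4sU RNA at 1 h and 43 in total RNA at 4 h, and 88 of 92 named results kept their side of the threshold. Under median-of-ratios scaling 9 members were called in total RNA at 4 h, 88 of 92 named results kept their side, and the members' median became 0.21 (4sU RNA, 1 h to 0 h), -0.70 (4 h to 0 h), -0.89 (4 h to 1 h), -0.77 (RP, 4 h to 0 h) and -0.14 (RP minus total RNA). With 1 library left out, the members called ranged from 11 to 30 in 4sU RNA at 4 h to 0 h, from 14 to 38 at 4 h to 1 h, from 0 to 3 in total RNA and from 7 to 15 in RP at 4 h, and 341 of 432 named results kept their side. Fewer libraries leave fewer degrees of freedom. The members' median then ranged from 0.14 to 0.22 (4sU RNA, 1 h to 0 h), -0.88 to -0.79 (4 h to 0 h), -1.06 to -0.94 (4 h to 1 h), -0.78 to -0.57 (total RNA), -0.05 to 0.13 (RP, 1 h to 0 h), -0.17 to -0.01 (4sU RNA minus total RNA) and -0.22 to -0.03 (RP minus total RNA). Leaving out the 1 h total RNA library, an alternative chosen after seeing the data, kept all 29 named results that use total RNA on their side. That library is fitted exactly, as the only one of its time, so this alternative could move little. No named result changed its sign under these alternatives, and called members and list genes outside the named results were not checked for this. The RP median at 1 h, which is near 0, was below 0 without 1 h replicate 2. Unknown depth in 13 libraries limits the precision of low genes such as E2f1 and Gins2.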

Other observations

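Motifs were also counted in promoter windows of the mitosis list, as a description without a test that was added after the data were seen. The cell cycle homology region TTTGAA, searched on both strands, was found in 12 of 18 genes of the mitosis list with a window (66.7%), in 8 of 47 members (17.0%) and in 1075 of 7562 genes of the expression table (14.2%). The box CCAAT was found in 15 of 18 mitosis genes (83.3%), 28 of 47 members (59.6%) and 3273 of 7562 genes (43.3%). The E2F motif was found in 1 of 18 mitosis genes (5.56%), against 38.3% of the members. Both groups of genes held members that fell in 4sU RNA at 4 h, while their medians at 1 h were -0.19 for mitosis genes and 0.17 for the replication genes.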
